A study of Mus musculus with 20 samples.

Results

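The livers of 5 mutant mice labelled as fed probucol were compared with those of 5 wild-type mice, 10 of the 20 arrays in the series. The mutants were female B6 mice homozygous for kd, a missense allele of Pdss2, carried on a recombinant chromosome and bred to the 13th backcross generation. By the labels their chow held 1% (w/w) probucol, an intake of about 95 mg per kg body weight per day. The labels give 2 further groups of 5 female kd mutants, one on the plain chow and one given CoQ10 at about 400 mg per kg per day. The wild-type mice were untreated B6 females on the plain chow. The mutants labelled probucol were 140 to 145 days old, the untreated mutants 129 to 143 days, the mutants labelled CoQ10 153 to 156 days and the wild types 215 to 217 days. Genotype, labelled probucol feeding and age therefore differ together between the compared groups, and their parts cannot be told apart.

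Members were chosen by the treatment and source fields. The array names disagree with those fields: all 5 arrays of the mutants labelled probucol carry the prefix Untr, and those of the untreated mutants carry Prob. Which field is right was not settled, so every statement below is about livers as labelled in the treatment field. Each liver gave one RNA sample and one Illumina Mouse WG-6 v2.0 array, on which beads carrying gene-specific probes report the brightness of labelled cRNA.

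Pdss2 encodes a subunit of the enzyme that builds the isoprenoid tail of coenzyme Q (CoQ, or ubiquinone). CoQ carries electrons from respiratory complexes I and II, and from the dehydrogenases of fatty acid and amino acid breakdown, to complex III in the inner mitochondrial membrane, and its reduced form is a lipid-soluble antioxidant. kd mice are known for a kidney disease that begins with protein in the urine, while liver is a tissue in which the mutation also lowers CoQ. Probucol is a lipid-lowering, antioxidant drug known to lower HDL cholesterol and to act on cholesterol export.

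In the label records the mutants labelled probucol excreted 1.36, 0.84, 1.48, 1.86 and 1.6 mg of albumin per 24 h, against 0.15, 0.2, 0.14, 0.17 and 0.16 mg in the wild types. Every one of these mutants lay above every wild type. The means were 1.43 ± 0.38 mg in mutants labelled probucol and 0.164 ± 0.023 mg in wild types (SD, n = 5 each; exact two-sided permutation p = 0.00794, adjusted over both measures 0.0159, and 0.00794 is the smallest p that 5 against 5 can give). The glomerular nephritis score was 0.8 ± 1.3 in mutants labelled probucol, whose replicate 1 scored 3, and 0.2 ± 0.45 in wild types (SD, n = 5 each; exact two-sided permutation p = 0.722).

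Arrays detected 12268 to 14596 probes in the mutants labelled probucol and 12519 to 14972 in the wild types, at median raw intensities of 209.9 to 271.5 and 202.2 to 252.9. The hepatocyte marker list (14 measured genes) summed to 492731 to 513265 normalised intensity units in the mutants labelled probucol and to 509595 to 529329 in the wild types, so both groups carry the RNA of liver cells. No probe of the array table is named Pdss2, and its transcript was not analysed here. Of 45281 probes, 15096 were detected in at least 5 of the 20 arrays and tested with limma. This linear model estimates a spread for each probe and moves it part of the way to a value common to all probes. Values below are normalised log2 intensities, differences are log2 values of the mutants labelled probucol minus wild type with their standard error, and a probe is called when its Benjamini-Hochberg adjusted p over all tested probes is under 0.05.

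The mutants labelled probucol differed from wild type in 106 of 15096 probes (0.702%), with 43 higher (0.285%) and 63 lower (0.417%). These named 84 genes, 34 higher and 50 lower, and 11 called probes had no gene name. The groups did not overlap for 94 of the 106 called probes, against 472 of all tested probes (3.13%). The calls rest on these same livers, so a lack of overlap among called probes is largely built in and adds no separate support. Probes of secreted defence proteins, a chemokine and 4 H2A copies were among those that rose. Probes of fatty acid handling genes, mitochondrial carriers and several neighbours of Pdss2 were among those that fell. Before adjustment 1857 probes had a p under 0.05. The calls were sensitive to single livers, since 21 of the 106 called probes kept their call in all 10 fits that left out 1 liver, and 75 of the 95 named called probes lost it in at least 1.

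**Figure D1:**
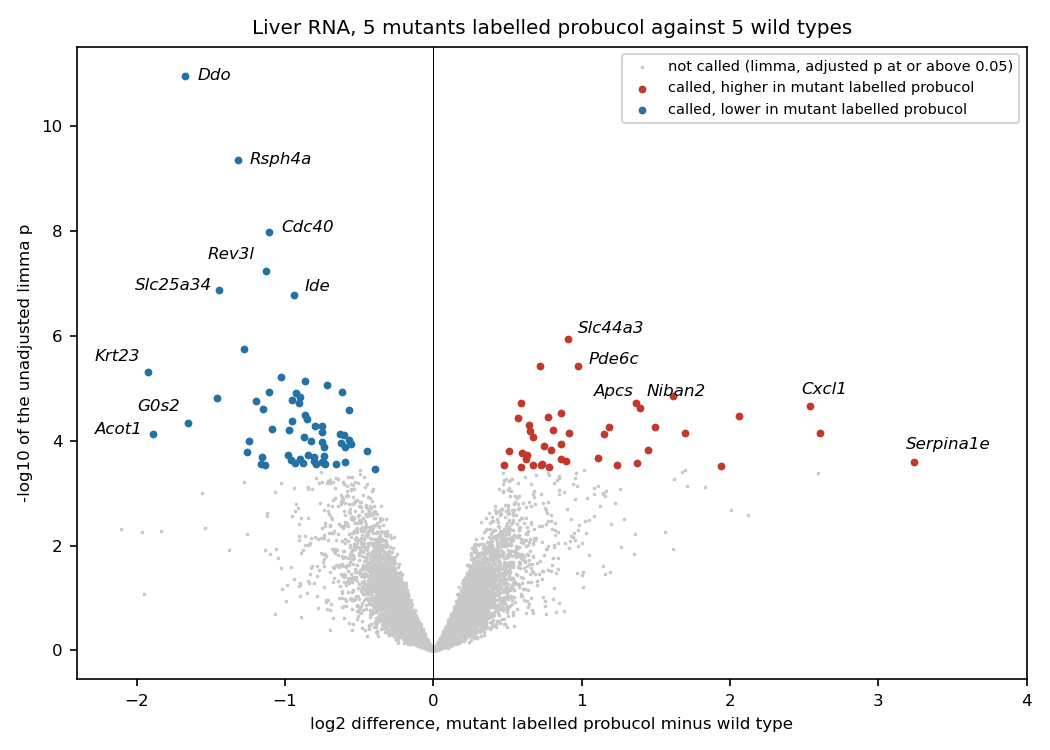
Each point is 1 of 15096 tested probes, with its log2 difference (mutants labelled probucol minus wild type) on the x axis and the negative log10 of its unadjusted limma p on the y axis. The 43 probes called higher reach 3.24 for Serpina1e, and among the 63 called lower Ddo and Rsph4a have the smallest p.

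Among secreted proteins, Serpina1e moved most. It belongs to the mouse family of alpha-1-antitrypsin genes, inhibitors of serine proteases that hepatocytes release into blood. Its level was 14.89, 15.34, 11.89, 15.80 and 12.15 in the mutants labelled probucol, against 10.89, 9.83, 11.02, 10.91 and 11.22 in the wild types. Replicates 1, 2 and 4 of the mutants stood well above replicates 3 and 5, which themselves lay above every wild type. The difference was 3.24 ± 0.74, or 9.46-fold (limma, adjusted p = 0.0434). The call was lost without probucol replicate 1, 2 or 4 or any 1 of the wild types (adjusted p up to 0.161) and with the number in the array name as a block (3.05, adjusted p = 0.0683), and with replicates 1, 2 and 4 all left out the difference was 1.25. The call was also lost with median scaling, with no filter, with the authors' log2 values and in a fit of the 2 groups. The untreated mutants averaged 11.92 and the mutants labelled CoQ10 12.47, between the other groups, and their ranges overlapped the mutants labelled probucol. Serpina1 genes are near-identical copies, so the probe may report more than 1 of them.

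Cxcl1 encodes a chemokine that draws neutrophils into tissue. Its level was 10.66, 12.32, 9.88, 11.86 and 9.20 in the mutants labelled probucol, against 9.14, 7.79, 8.23, 7.35 and 8.71 in the wild types. The groups did not overlap, though mutant replicate 5 and wild-type replicate 1 nearly met. The difference was 2.54 ± 0.47, or 5.81-fold (limma, adjusted p = 0.0128), and 1.29 with mutant replicates 1, 2 and 4 left out. Without probucol replicate 4 or wild-type replicate 2 it missed the threshold (adjusted p up to 0.0525), and its call was also lost in a fit of the 2 groups. Cxcl1 was also higher in the mutants labelled probucol than in those labelled CoQ10, by 3.21 ± 0.47 (limma, adjusted p = 0.00664), a comparison in which 7 of 15096 probes were called (0.0464%). The region before its start site is shown because it holds the letter pattern known for NF-kB, the transcription factor of inflammatory signalling. Capitals mark GGGA, any 4 bases and then CC, searched on both strands. There were 3 matches, of which the 2 nearest to the start overlap as readings of the same stretch on opposite strands. The pattern is common, present in 17.6% of the 32851 RefSeq promoter windows of 250 bases. It was in 4 of the 32 windows of genes called higher and in 13 of the 44 windows of genes called lower. A match here is a description of the sequence only (RefSeq, GRCm38.p6).
Cxcl1, chr5:90890995-90891244, plus strand: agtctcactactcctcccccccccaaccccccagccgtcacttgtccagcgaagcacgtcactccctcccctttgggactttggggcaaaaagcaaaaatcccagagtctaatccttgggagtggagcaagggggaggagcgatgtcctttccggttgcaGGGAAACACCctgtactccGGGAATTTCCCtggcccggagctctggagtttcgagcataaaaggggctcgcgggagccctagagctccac

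Apcs encodes serum amyloid P, a major acute phase protein of the mouse. Its level was 12.09, 12.34, 10.93, 12.53 and 11.23 in the mutants labelled probucol, against 10.64, 10.17, 10.30, 10.43 and 10.62 in the wild types, with no overlap. It differed by 1.39 ± 0.26 (limma, adjusted p = 0.0132), a call lost without probucol replicate 4 or wild-type replicate 2 (adjusted p up to 0.0527). A2ml1, an alpha-2-macroglobulin-like protease inhibitor, averaged 11.95 ± 0.64 in mutants labelled probucol and 10.77 ± 0.24 in wild types (SD, n = 5 each), a difference of 1.18 ± 0.24 (limma, adjusted p = 0.0201). Its second called probe differed by 1.11 ± 0.25, and in the untreated and CoQ10-labelled mutants the first probe averaged 10.82 and 10.74. Both A2ml1 calls depended on single livers, with adjusted p up to 0.142 when 1 was left out, and the second was lost with the number in the array name as a block (adjusted p = 0.0624).

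Across the acute phase list, 23 of 30 measured genes lay higher and 7 lower, with a median of 0.32, where all 9262 genes (1 probe a gene) had a median of -0.018 and 46.2% lay higher. Cxcl1 and Apcs were the 2 called members, and over all genes 0.788% were called. Members that were not called included Mt2, a metallothionein, at 1.56 ± 0.50 (limma, adjusted p = 0.18), and the plasma glycoprotein genes Orm2 at 0.63 ± 0.20 (0.16) and Orm1 at 0.38 ± 0.13 (0.21). The list was uneven among the mutants. Its mean stood 0.37, 0.90, 0.08, 0.47 and 0.24 above the wild-type mean in mutants labelled probucol, and wild types ranged from -0.17 to 0.12 around it. Without replicate 2 the median was 0.15, with replicates 1, 2 and 4 left out it was 0.05, with groups by the array name prefix it was 0.02, and within the livers that share a number (1 to 4) in their array names it was 0.27, 0.69, 0.12 and 0.11.

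Inflammatory cells were looked at through their markers. Of 13 listed neutrophil markers 3 were measured, and S100a8 (1.36 ± 0.45), S100a9 (1.00 ± 0.45) and Csf3r (0.19 ± 0.14) were not called (limma, adjusted p = 0.18, 0.37 and 0.63). Their summed intensity ran from 267 to 1288 in the mutants labelled probucol and from 177 to 557 in the wild types, and the listed granule genes Mpo, Elane, Camp, Ltf and Ngp did not pass the detection filter. Prtn3, a neutrophil granule protease gene on no list and named after its value was seen, did pass it and differed by 2.01 ± 0.57 with overlapping groups (limma, adjusted p = 0.115). Within livers that share a number in their array names the median of the 3 listed markers was 0.69, 2.41, 2.00 and -0.69. Kupffer cell and macrophage markers lay higher in 15 of 18 genes (median 0.24), with 0 called. Complement genes of these cells were among them, with C1qb at 0.45 ± 0.13, C1qc at 0.27 ± 0.10 and C1qa at 0.44 ± 0.17, beside the folate receptor gene Folr2 at 0.62 ± 0.15 (limma, adjusted p = 0.061 to 0.26). Summed, these markers reached 30783 to 37316 in mutants labelled probucol and 29425 to 34908 in wild types, and the median was 0.30 with mutant replicates 1, 2 and 4 left out. From the wild-type mean, their list mean stood at 0.15, 0.25, 0.25, -0.01 and 0.34 in mutants labelled probucol. The untreated mutants stood at 0.20, 0.31, 0.22, 0.39 and 0.04, and those labelled CoQ10 at 0.51, 0.36, 0.39, 0.08 and 0.51. Higher values of these markers were thus also seen in the other mutants. The part of these cells in Cxcl1 or the acute phase list was not tested, and in whole liver more cells of a type and more RNA per cell cannot be told apart. Icam1, an adhesion molecule for white blood cells named here after its value was seen, rose by 0.60 ± 0.13 (limma, adjusted p = 0.0353), a call lost in 7 of 10 fits without 1 liver (adjusted p up to 0.128).

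**Figure D2:**
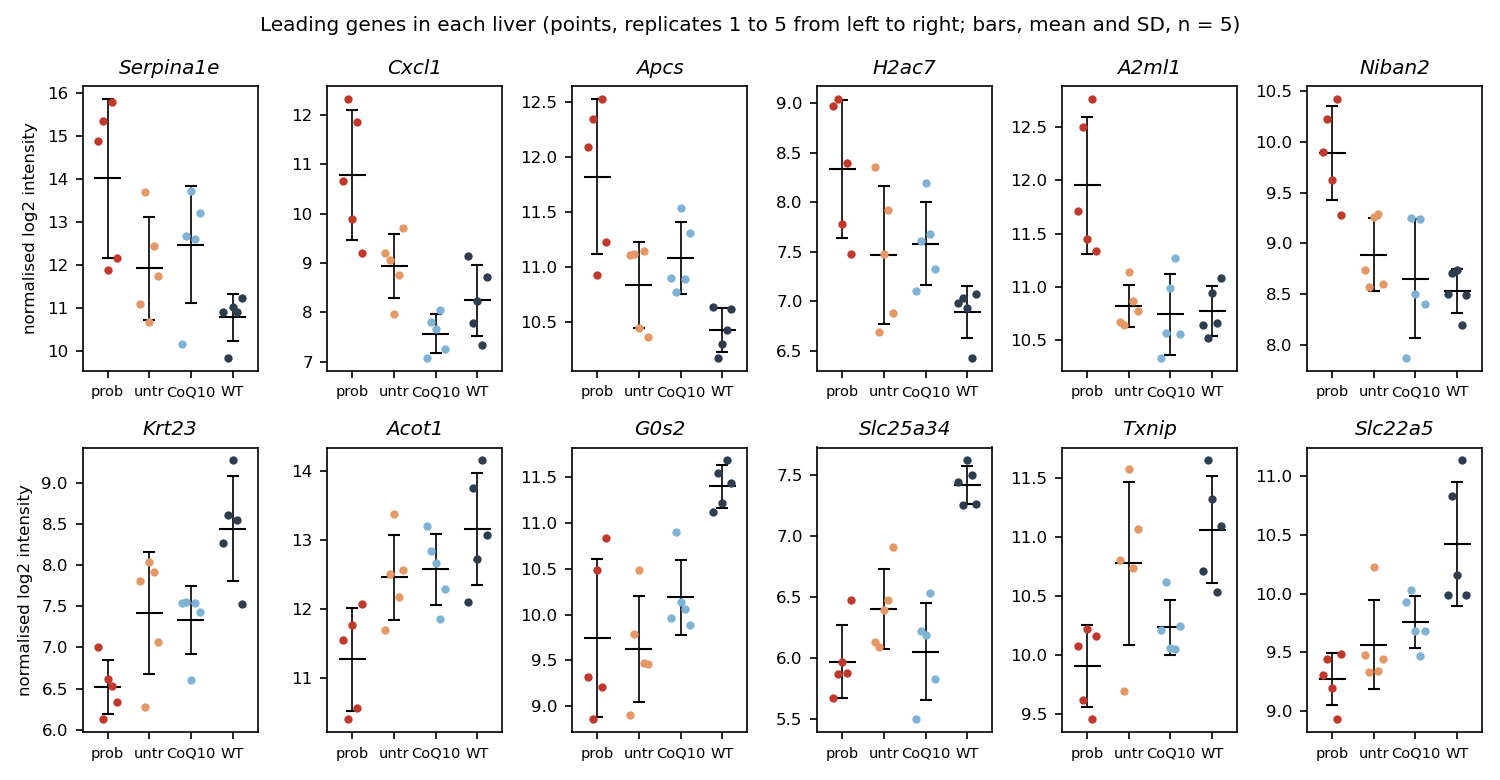
Normalised log2 intensity of 12 called genes (y axes) in mutants labelled probucol, untreated mutants, mutants labelled CoQ10 and wild types, with 1 point a liver and bars for the mean and SD (n = 5). These genes were picked among called genes whose groups do not overlap. The mutants labelled probucol therefore lie wholly above wild type in the upper row and wholly below in the lower row.

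Probes of 4 histone H2A genes were called higher. H2ac7, H2ac12, H2ac13 and H2ac15 encode near-identical copies of histone H2A, the protein that with H2B, H3 and H4 forms the nucleosome, and lie in the histone cluster of chromosome 13. H2ac7 stood at 8.97, 9.04, 7.78, 8.40 and 7.48 in mutants labelled probucol, against 6.98, 7.04, 6.93, 6.43 and 7.07 in wild types. H2ac15 stood at 9.26, 9.24, 8.15, 8.90 and 7.89 in mutants labelled probucol, against 7.46, 7.51, 7.60, 7.49 and 7.64 in wild types. In both genes the groups did not overlap, and mutant replicates 3 and 5 were the lowest of the mutants. The differences were 1.45 ± 0.31 for H2ac7, 1.37 ± 0.31 for H2ac12, 1.24 ± 0.29 for H2ac13 and 1.15 ± 0.23 for H2ac15 (limma, adjusted p = 0.0336, 0.0434, 0.0434 and 0.0215). These are not 4 independent signals, because probes of such copies can share transcripts, and second probes, none called, differed by 1.08 for H2ac7, 0.82 for H2ac12 and 0.13 for H2ac13. In both groups these second probes were brighter than the called ones, for H2ac13 at 12.57 against 9.61 in mutants labelled probucol. The H2ac13 call therefore rests on its dimmer probe. None of the 4 stayed called without probucol replicate 1, 2 or 4 or wild-type replicate 2, 3 or 4 (adjusted p up to 0.132 when 1 liver was left out), and H2ac12 was also lost with the number in the array name as a block (adjusted p = 0.0572).

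The 250 bases before the annotated start of each are printed because these genes moved together. Capitals mark CCAAT, a box frequent in histone promoters, on either strand. Each window holds 3 or 4 matches, while 33.8% of all 32851 windows hold at least 1 (RefSeq, GRCm38.p6). At least 1 match was in 9 of the 32 windows of genes called higher and in 22 of the 44 windows of genes called lower.
H2ac7, chr13:23574131-23574380, plus strand: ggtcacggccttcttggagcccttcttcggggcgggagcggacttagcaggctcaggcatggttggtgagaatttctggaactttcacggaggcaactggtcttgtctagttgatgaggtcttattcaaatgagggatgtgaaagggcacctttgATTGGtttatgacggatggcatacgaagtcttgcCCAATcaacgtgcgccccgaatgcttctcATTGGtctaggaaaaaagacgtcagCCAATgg
H2ac12, chr13:22035644-22035893, minus strand: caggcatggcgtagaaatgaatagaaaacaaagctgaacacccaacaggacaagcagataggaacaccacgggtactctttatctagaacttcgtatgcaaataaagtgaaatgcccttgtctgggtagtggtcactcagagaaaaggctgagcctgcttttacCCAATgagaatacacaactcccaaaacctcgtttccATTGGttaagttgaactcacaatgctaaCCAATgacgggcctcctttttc
H2ac13, chr13:21716162-21716411, plus strand: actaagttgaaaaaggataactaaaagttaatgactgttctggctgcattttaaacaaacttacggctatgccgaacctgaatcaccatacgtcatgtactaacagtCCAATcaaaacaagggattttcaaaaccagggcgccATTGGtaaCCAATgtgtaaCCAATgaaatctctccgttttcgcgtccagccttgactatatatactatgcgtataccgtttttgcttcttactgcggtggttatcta
H2ac15, chr13:21753913-21754162, minus strand: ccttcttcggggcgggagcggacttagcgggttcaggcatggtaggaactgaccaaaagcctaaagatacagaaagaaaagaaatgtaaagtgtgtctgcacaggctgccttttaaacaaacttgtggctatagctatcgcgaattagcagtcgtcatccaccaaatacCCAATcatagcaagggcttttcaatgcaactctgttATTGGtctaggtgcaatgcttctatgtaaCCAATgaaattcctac

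Replication genes were not called. The cell cycle and replication list lay higher in 13 of 16 genes, with a median of 0.33 and 0 called, and its leading members were parts of the replicative helicase, Mcm4 (0.51 ± 0.19), Mcm5 (0.61 ± 0.26) and Mcm6 (0.67 ± 0.29; limma, adjusted p = 0.25 to 0.35). The list mean stood 0.50 and 0.95 above the wild-type mean in mutant replicates 1 and 2, but 0.03, 0.06 and -0.09 from it in replicates 3, 4 and 5. The median was 0.20 without replicate 2, -0.12 with replicates 1, 2 and 4 left out and 0.04 with groups by the array name prefix. Cenpw, a kinetochore protein gene, was called at 0.77 ± 0.15 (limma, adjusted p = 0.0158) and is one of the neighbours of Pdss2.

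Further called rises were smaller. Ctps, the enzyme that makes CTP for nucleic acids and phospholipids, averaged 8.27 ± 0.25 in mutants labelled probucol and 7.35 ± 0.32 in wild types (SD, n = 5 each), a difference of 0.92 ± 0.19 (limma, adjusted p = 0.0215). Slc44a3, a choline transporter-like gene, was at 7.37 ± 0.21 in mutants labelled probucol and 6.46 ± 0.28 in wild types (SD, n = 5 each), higher by 0.90 ± 0.13 (limma, adjusted p = 0.00251), and its call held without any 1 liver. Ost4, a subunit of the enzyme that attaches N-linked sugars, was called on 1 probe at 0.86 ± 0.18 (limma, adjusted p = 0.0277). Its other kept probes, the brightest one among them, differed by 0.34 and 0.24 and were not called (limma, adjusted p = 0.31 and 0.39). Niban2, a cytoplasmic protein tied to cell survival, rose by 1.36 ± 0.25, Tceal8, of a family related to transcription elongation factors, by 0.86 ± 0.16, and Plxna2, a semaphorin receptor, by 0.81 ± 0.16 (limma, adjusted p = 0.0114, 0.0152 and 0.0212). Pde6c, the cone phosphodiesterase known from the retina, stood at 7.32, 7.33, 7.44, 7.91 and 7.29 in mutants labelled probucol, against 6.48, 6.22, 6.41, 6.75 and 6.56 in wild types. It rose by 0.98 ± 0.16 (limma, adjusted p = 0.00567) and was also higher than in the mutants labelled CoQ10, by 1.22 ± 0.16 (limma, adjusted p = 0.0021). Of the genes in this paragraph, Pde6c and Slc44a3 kept their call without any 1 liver, while Ctps, Ost4, Niban2, Tceal8 and Plxna2 lost it in at least 1 such fit (adjusted p up to 0.115). With median scaling all of these genes, Pde6c and Slc44a3 included, lost their call. The same held with mutant replicates 1, 2 and 4 left out.

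Among the genes that fell was Acot1, a cytosolic thioesterase that frees fatty acids from CoA and a known target of the fasting regulator PPAR alpha. It stood at 11.55, 10.40, 11.78, 10.56 and 12.07 in mutants labelled probucol, against 12.10, 13.75, 12.73, 14.15 and 13.08 in wild types. The groups nearly met, with mutant replicate 5 just under wild-type replicate 1. It fell by 1.89 on the log2 scale (SE 0.38; limma, adjusted p = 0.0215), and its other kept probe differed by -1.56 and was not called (adjusted p = 0.0804). Acot1 has near-identical sister genes, so its probes may report more than 1 of them. The call was lost without probucol replicate 2 or 4 or wild-type replicate 2 or 4 (adjusted p up to 0.0932).

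G0s2 encodes an inhibitor of adipose triglyceride lipase, which opens stored fat. It stood at 9.32, 8.86, 10.49, 9.21 and 10.84 in mutants labelled probucol, against 11.12, 11.55, 11.22, 11.68 and 11.44 in wild types, again without overlap. It fell by 1.66 on the log2 scale (SE 0.32; limma, adjusted p = 0.019). Its means in the untreated and CoQ10-labelled mutants were 9.62 and 10.19, close to the 9.74 of the mutants labelled probucol. The call was lost without probucol replicate 1, 2 or 4 or wild-type replicate 2 or 4 (adjusted p up to 0.0739).

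Slc22a5, the plasma membrane carrier of carnitine, which fatty acids need to enter mitochondria, stood at 9.31, 9.45, 9.20, 8.93 and 9.49 in mutants labelled probucol, against 9.99, 10.83, 10.16, 11.13 and 9.99 in wild types. Both of its kept probes were called, at -1.14 ± 0.21 and -0.96 ± 0.22 (limma, adjusted p = 0.0132 and 0.0426). Slc25a34, a mitochondrial inner membrane carrier, was at 5.67, 5.87, 5.97, 5.87 and 6.47 in mutants labelled probucol, against 7.44, 7.26, 7.62, 7.50 and 7.27 in wild types. It was detected in 1 of 5 mutants labelled probucol and 5 of 5 wild types, so its difference of -1.45 ± 0.19 (limma, adjusted p = 4.06e-04) rests on mutant values mostly at background, and the size of the fall is not settled. The call held without any 1 liver. The stronger Slc22a5 probe missed the threshold without probucol replicate 4 or wild-type replicate 2 (adjusted p up to 0.0527), and the other was lost without any 1 of 7 livers (adjusted p up to 0.152) and with the number in the array name as a block (adjusted p = 0.054).

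The list of fatty acid oxidation and PPAR alpha targets lay lower in all 34 measured genes, with a median of -0.49 against -0.018 over all genes. Acot1 was the 1 called member (0.788% over all genes), and 22 members had an unadjusted p under 0.05, as did 13.2% of all genes. Among those not called were Acadm, the medium-chain acyl-CoA dehydrogenase, at -0.56 ± 0.14, Cyp4a14, a fatty acid hydroxylase, at -0.82 ± 0.21, Acaa1a, the peroxisomal thiolase, at -0.51 ± 0.14, and Cpt2, the inner carnitine palmitoyltransferase, at -0.50 ± 0.14 (limma, adjusted p = 0.061 to 0.11). The summed intensity of the list was 134926 to 184422 in mutants labelled probucol and 186673 to 282746 in wild types, so the livers did not overlap. Its mean stood at -0.69, -0.81, -0.40, -0.57 and -0.19 relative to the wild-type mean in mutants labelled probucol, against -0.36, 0.15, -0.16, 0.45 and -0.07 in the wild types themselves, where mutant replicate 5 lay inside the wild-type range. The median was -0.25 with mutant replicates 1, 2 and 4 left out and -0.25 with groups by the array name prefix. Within the livers that share a number in their array names it was -0.48, -0.56, -0.75 and -0.07. The list mean stood at -0.62, -0.48, 0.03, -0.35 and -0.26 in the untreated mutants. It stood at -0.38, -0.30, -0.31, -0.43 and -0.29 in those labelled CoQ10. Lower values of this list were thus also seen in most of the other mutants.

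**Figure D3:**
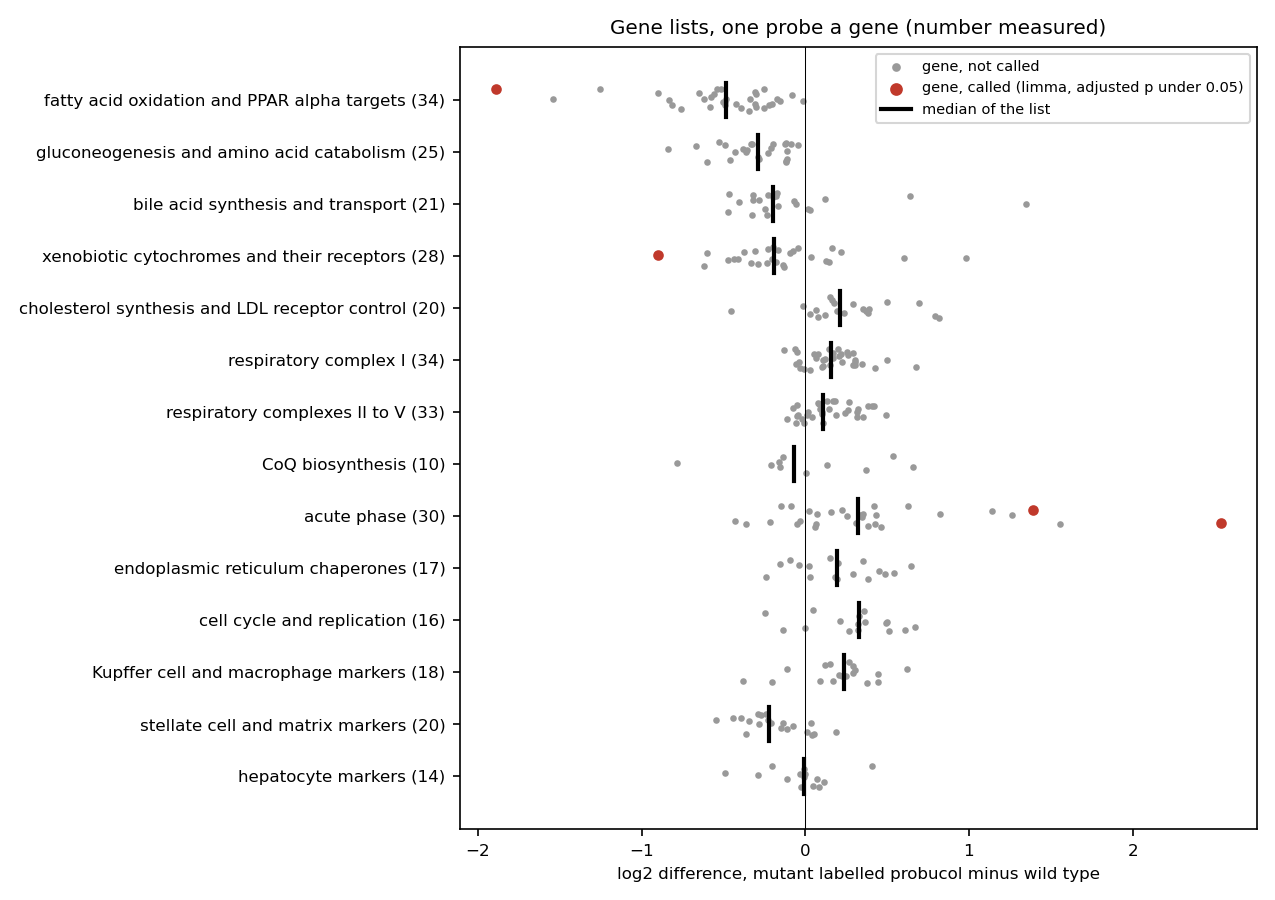
Log2 difference of each measured gene (points, 1 probe a gene) in 14 lists, mutants labelled probucol minus wild type, with the list median as a bar. All 34 genes of fatty acid oxidation and PPAR alpha lie below 0 (median -0.49), and 23 of 30 acute phase genes lie above it (median 0.32).

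Gluconeogenesis and amino acid breakdown lay lower in all 25 measured genes, with a median of -0.29 and 0 called. The transcription factor gene Creb3l3, which acts in fasting liver, differed by -0.60 ± 0.15, the ornithine aminotransferase gene Oat by -0.67 ± 0.21 and the urea cycle gene Ass1 by -0.49 ± 0.18 (limma, adjusted p = 0.065 to 0.23). Replicate 5 of the mutants again stood close to wild type, at -0.06 from the wild-type mean, where the other 4 ranged from -0.26 to -0.47. With replicates 1, 2 and 4 left out the median was -0.09. Pericentral markers, genes of the hepatocytes around the central vein, lay lower in 13 of 14 genes (median -0.27) and periportal markers in 10 of 13 (median -0.12, and 0.03 with median scaling), each with 0 called. With mutant replicates 1, 2 and 4 left out the pericentral median was -0.08. The pericentral list mean also lay below the wild-type mean in the other mutants, at -0.42 to -0.27 in untreated and -0.46 to -0.08 in CoQ10-labelled mutants.

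**Figure D4:**
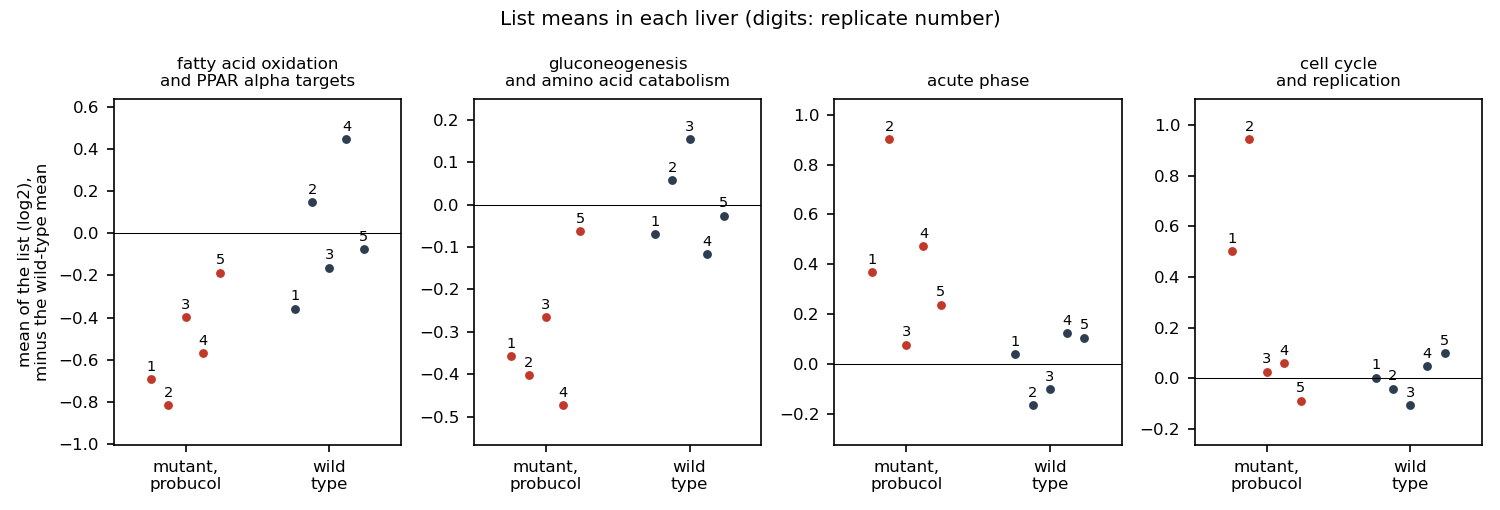
Mean of 4 gene lists in each liver (y axis, log2, minus the mean of the 5 wild types), with the replicate number beside each point. Mutant replicates 1 and 2 are highest for cell cycle genes (0.50 and 0.95), and mutant replicate 5 is nearest to wild type for fatty acid oxidation (-0.19).

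CoQ works in the electron transport chain. Complex I subunits lay higher in 27 of 34 genes (median 0.16) and subunits of complexes II to V in 25 of 33 (median 0.11), with 0 called in either, led by Ndufb2 at 0.68 ± 0.23 and Uqcr11 at 0.42 ± 0.13 (limma, adjusted p = 0.20 and 0.17). Within array name numbers 1, 2, 3 and 4 the medians were 0.24, -0.16, 0.30 and 0.15 for complex I and 0.17, -0.10, 0.22 and 0.12 for complexes II to V, so both turned within number 2. The complex I list mean also lay above the wild-type mean in the other mutants. It stood 0.01 to 0.35 above in untreated and 0.02 to 0.32 above in CoQ10-labelled mutants, where wild types ranged from -0.04 to 0.11. Genes that make CoQ split evenly, 5 higher and 5 lower of 10 measured (median -0.07, 0 called, and 0.01 with median scaling). Coq8b, an atypical kinase of that pathway, was nearest to the threshold, at 8.25, 8.54, 7.91, 8.79 and 7.99 in mutants labelled probucol, against 7.63, 7.33, 7.78, 7.40 and 8.06 in wild types. The groups overlapped, and the difference was 0.66 ± 0.16 (limma, adjusted p = 0.065). Of the dehydrogenases that reduce CoQ, 7 of 10 lay lower (median -0.08, 0 called, and 0.04 with median scaling), with Prodh, proline dehydrogenase, at -0.71 ± 0.24 and Etfdh, which passes electrons from fatty acid oxidation to CoQ, at -0.40 ± 0.17 (limma, adjusted p = 0.20 and 0.34).

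Cholesterol genes bear on the lipid-lowering drug named in the labels. The cholesterol synthesis list lay higher in 18 of 20 genes (median 0.21, 0 called, and 0.33 without probucol replicate 5), with medians of 0.17, 0.32, 0.47 and -0.21 within array name numbers 1 to 4, the last of the opposite sign. Its members included Lss, lanosterol synthase, at 0.79 ± 0.34 and Sqle, squalene epoxidase, at 0.70 ± 0.35 (limma, adjusted p = 0.35 and 0.42). Of the HDL, lipoprotein and cholesterol export list, 12 of 27 genes lay higher and 15 lower (median -0.01, and 0.03 with median scaling). Its 1 called member (0.788% over all genes) was Npc1, which carries cholesterol out of lysosomes, at 12.30 ± 0.25 in mutants labelled probucol and 13.04 ± 0.22 in wild types (SD, n = 5 each), a difference of -0.74 ± 0.16 (limma, adjusted p = 0.0385). The probes of Npc1 disagreed, with others at -0.58 and 0.34, neither called, and its call was lost without any 1 of 8 livers, namely probucol replicates 1 to 4 and wild-type replicates 1 to 4 (adjusted p up to 0.148). Abcg8, a sterol exporter to bile, was at -0.69 ± 0.22 (limma, adjusted p = 0.18). Cyp7a1, the rate-limiting enzyme of bile acid synthesis, ranged from 10.69 to 14.19 in mutants labelled probucol and from 10.28 to 11.96 in wild types, a difference of 1.35 ± 0.51 (limma, adjusted p = 0.26), while 16 of the 21 bile acid genes lay lower (median -0.20, 0 called).

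Detoxification genes lay mostly lower. Aldh3a2, the microsomal fatty aldehyde dehydrogenase, was called on both kept probes, at -0.95 ± 0.17 and -0.90 ± 0.16 (limma, adjusted p = 0.0114 for each). One of these probes missed the threshold without probucol replicate 4 (adjusted p = 0.0515). Aldh3a2 was the 1 called member (0.788% over all genes) of a cytochrome and receptor list that lay lower in 21 of 28 genes (median -0.19). Nrf2 target and glutathione genes, a readout of oxidative stress, lay lower in 20 of 31 (median -0.05, 0 called, and 0.02 with median scaling). Txnip, which binds and inhibits thioredoxin and follows glucose supply, stood at 10.07, 9.62, 10.22, 9.45 and 10.16 in mutants labelled probucol, against 10.71, 11.65, 11.32, 10.53 and 11.10 in wild types. It was called on both kept probes, at -1.16 ± 0.27 and -1.13 ± 0.26 (limma, adjusted p = 0.0434 for each), and these calls were lost without most single livers (adjusted p up to 0.167), probucol replicate 5 and wild-type replicate 4 being the exceptions for both. Both were also lost with the number in the array name as a block (adjusted p up to 0.0758).

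Krt23, an epithelial keratin, had the largest fall of the named called genes. It stood at 7.0, 6.12, 6.62, 6.53 and 6.34 in mutants labelled probucol, against 8.26, 8.61, 9.27, 8.55 and 7.52 in wild types. The groups were apart, and it fell by 1.92 on the log2 scale (SE 0.32; limma, adjusted p = 0.00661), with the call kept without any 1 liver. It is on the cholangiocyte and epithelial list, of which 6 of 18 markers were measured, all 6 lower (median -0.23, 1 called where 0.788% of all genes were, and -0.13 without wild-type replicate 1), and whose summed intensity of 7775 to 12506 in mutants labelled probucol overlapped the 9827 to 13539 of wild types. From the wild-type mean, the list mean stood from -0.74 to -0.38 in mutants labelled probucol. It also lay lower in the untreated mutants (-0.41 to -0.22) and in those labelled CoQ10 (-0.49 to -0.17), while wild types ranged from -0.22 to 0.28. Krt7, Krt19 and Epcam, which define bile duct cells, are not among the measured 6, and the part of these cells in the fall of Krt23 was not tested. Serpinb1a, an inhibitor of neutrophil proteases, stood at 7.04, 7.43, 8.43, 6.82 and 8.11 in mutants labelled probucol, against 9.49, 9.12, 8.67, 8.97 and 8.85 in wild types. It fell by 1.46 on the log2 scale (SE 0.26; limma, adjusted p = 0.0114).

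Plekhb1, a membrane protein with a pleckstrin homology domain, stood at 9.25, 8.35, 9.05, 9.08 and 8.74 in mutants labelled probucol, against 10.13, 10.45, 10.40, 9.85 and 10.02 in wild types. It fell by 1.28 on the log2 scale (SE 0.20; limma, adjusted p = 0.00342). It was also lower than in the mutants labelled CoQ10, whose mean was 10.06, by 1.16 ± 0.20 (limma, adjusted p = 0.02), and the untreated mutants averaged 8.74. The remaining leading falls were Unc79, part of the sodium leak channel complex, at -1.26 ± 0.27 with detection in 1 of 5 mutants labelled probucol, the transcription factor gene Rfx4 at -1.19 ± 0.22 and Scara3, a scavenger receptor, at -1.11 ± 0.19 (limma, adjusted p = 0.0342, 0.0114 and 0.011). Rfx4 lies on the chromosome of Pdss2, 414 gene positions from it. Of the genes in this paragraph Plekhb1 and Scara3 kept their call without any 1 liver, Rfx4 lost it without probucol replicate 4 (adjusted p = 0.051), and Unc79 lost it in 7 of 10 such fits (adjusted p up to 0.104).

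Further called genes are named here for their roles, a choice made after their values were seen. Lpl, lipoprotein lipase, stood at 11.42, 11.87, 10.71, 12.51 and 10.13 in mutants labelled probucol, against 10.23, 9.56, 9.82, 9.86 and 9.71 in wild types, with mutant replicate 5 inside the wild-type range, and differed by 1.49 ± 0.30 (limma, adjusted p = 0.0201). Foxa3, a liver transcription factor, rose by 0.75 ± 0.16, and Nme1, a nucleoside diphosphate kinase, by 0.64 ± 0.13. Pdp2, which activates pyruvate dehydrogenase, was called on 2 probes at -0.80 ± 0.16 and -0.73 ± 0.17, Ppm1k, the phosphatase that activates branched-chain amino acid breakdown, was at -0.88 ± 0.20, Slc25a42, the mitochondrial CoA carrier, at -0.81 ± 0.18, and Esrrg, a nuclear receptor of mitochondrial genes, at -0.95 ± 0.18 (limma, adjusted p from 0.0179 to 0.0434). The other kept probe of Esrrg differed by -0.50 and was not called (limma, adjusted p = 0.33). Of genes on the lists, Hspb1, a small heat shock protein, was at 8.68 ± 0.14 in mutants labelled probucol and 9.65 ± 0.25 in wild types (SD, n = 5 each) and was the 1 called gene of 13 on the heat shock list (0.788% over all genes). Ahcy, which clears S-adenosylhomocysteine, fell by 0.45 on the log2 scale (SE 0.10; limma, adjusted p = 0.0338), while its other kept probe differed by 0.03. Each of these genes lost its call without at least 1 single liver, with adjusted p up to 0.165. Foxa3, Ppm1k and the weaker Pdp2 probe were also lost with the number in the array name as a block (adjusted p = 0.0532, 0.0736 and 0.0528).

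Several genes close to Pdss2 were called. In the order of protein-coding genes along its chromosome, 129 tested probes belong to genes within 100 positions of Pdss2, and 9 of these were called (6.98%), 2 higher and 7 lower, against 97 of the other probes (0.648%). Within 25 positions 4 of 33 probes were called (12.1%), all lower. The 8 genes all lay on one side of Pdss2, from Cenpw at 73 positions to Zbtb24 at 17. Farther off on its other side Pcsk4, Rfx4 and Rdh9 were also called, at 304, 414 and 664 positions. The labels state that the mutants' chromosome was recombinant, so sequence differences under a probe and changed RNA cannot be told apart here.

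The strongest of these was Ddo, D-aspartate oxidase, a peroxisomal enzyme, 24 positions away. Its lead probe stood at 5.69, 5.43, 5.95, 5.63 and 5.78 in mutants labelled probucol, against 7.59, 7.27, 7.05, 7.40 and 7.52 in wild types. It was detected in 0 of 5 mutants labelled probucol and 5 of 5 wild types, at least 2.27-fold lower against the lowest detected signal (limma, adjusted p = 1.65e-07). It was likewise detected in 0 of 5 untreated and 0 of 5 CoQ10-labelled mutants, so levels among the mutants cannot be compared on this probe. The 3 other kept Ddo probes differed by -0.86 (called), -0.20 and 0.38, so the gene's own probes disagreed in size and sign.

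Rsph4a, a radial spoke protein of motile cilia, 59 positions away, was detected in 0 of 5 mutants labelled probucol and was at least 1.46-fold lower (limma, adjusted p = 3.31e-06). It stood at 5.44, 5.53, 5.26, 5.41 and 5.40 in mutants labelled probucol, against 6.43, 6.82, 6.60, 7.18 and 6.61 in wild types. Rev3l, the catalytic subunit of the translesion DNA polymerase zeta, fell by 1.13 on the log2 scale (SE 0.14) with detection in 1 of 5 mutants labelled probucol, and Cdc40, a splicing factor, by 1.11 (SE 0.12; limma, adjusted p = 2.22e-04 and 5.25e-05). Zbtb24, a zinc finger protein, fell by 1.03 and Cdk19, a kinase of the Mediator complex, by 0.74 on that scale, while Gtf3c6, a subunit of transcription factor IIIC, rose by 0.72 on its called probe and differed by 0.03 on the other. For Rsph4a, Rev3l, Cdc40, Zbtb24 and Gtf3c6 the untreated mutants differed from wild type by -1.39, -1.19, -0.90, -0.97 and 0.65, and the mutants labelled CoQ10 by -1.47, -1.01, -0.88, -0.80 and 0.66, in comparisons that share the wild-type livers. Rsph4a and Rev3l were at background in all or most mutants labelled probucol, so sizes among the mutant groups cannot be compared on these probes. Cenpw, at 0.77 in mutants labelled probucol, differed from wild type by 0.30 in untreated and 0.28 in CoQ10-labelled mutants, and Cdk19, at -0.74, by -0.53 and -0.48. The weaker called Ddo probe, at -0.86, differed by -0.52 and -0.84. Not called in this region were Sult3a1, a sulfotransferase, at 1.63 ± 0.40, and its neighbour Sult3a2 at -1.96 ± 0.64 (limma, adjusted p = 0.061 and 0.18). Cenpw and Cdk19 lost their call without at least 1 single liver (adjusted p up to 0.0985), and the others kept it.

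**Figure D5:**
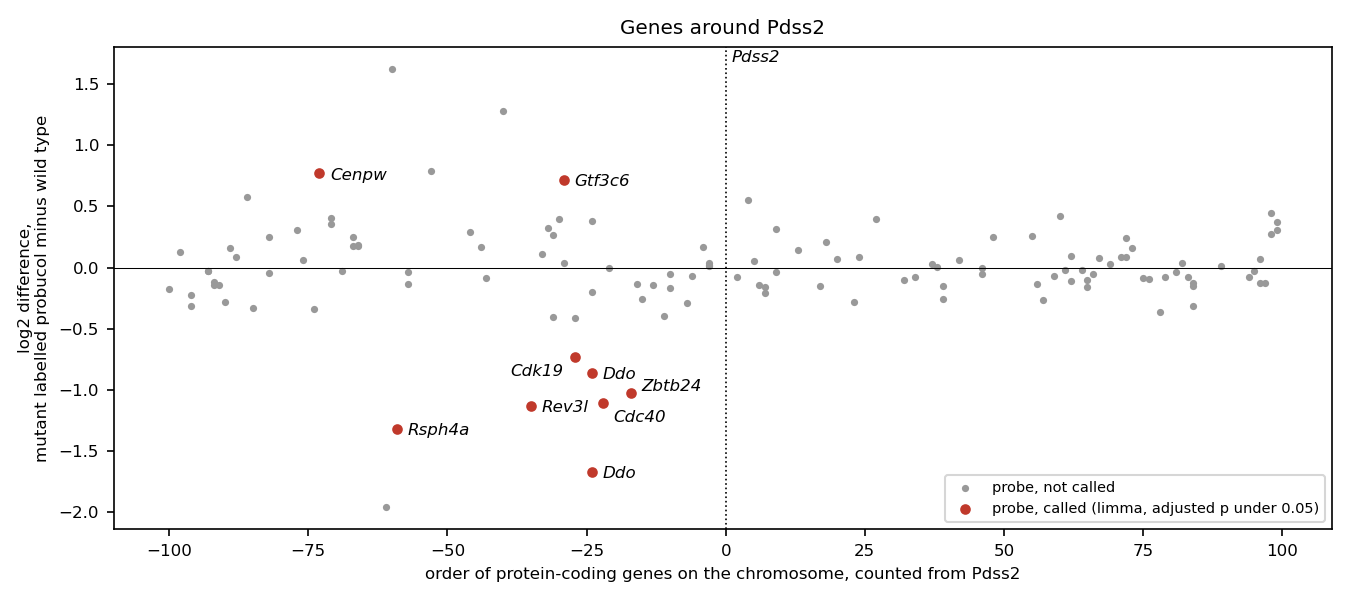
Log2 difference (mutants labelled probucol minus wild type, y axis) of the 129 tested probes of genes within 100 positions of Pdss2, in the order of protein-coding genes (x axis). The 9 called probes lie on one side of Pdss2, between 73 and 17 positions from it.

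Ide, insulin-degrading enzyme, which lies on another chromosome, fell to 10.29 ± 0.30 in mutants labelled probucol, against 11.23 ± 0.12 in wild types (SD, n = 5 each), a difference of -0.94 ± 0.12 (limma, adjusted p = 4.23e-04). It kept its call without any 1 liver, but its probes disagreed, with -0.85 and 0.47 for the other 2. It was the 1 called gene of 16 on the growth hormone and IGF list (median -0.17, and -0.08 without wild-type replicate 1), where 0.788% of all genes were called. Serpina1e was the 1 called gene of 21 male-biased liver genes (12 higher, median 0.16), and of 21 female-biased genes 0 were called (9 higher, median -0.18). The male-biased median was 0.06 without probucol replicate 2, 0.10 without wild-type replicate 1, 0.09 without wild-type replicate 4 and 0.40 with groups by the array name prefix, and the female-biased median was -0.03 without probucol replicate 1. On the circadian list Tspan4, a tetraspanin, was the 1 called gene of 17, at 0.90 ± 0.20 (limma, adjusted p = 0.0434), a call lost in 8 of 10 fits without 1 liver (adjusted p up to 0.160), and its other kept probe differed by 0.09. The median of that list was -0.17 (7 higher), -0.35 without probucol replicate 2, -0.31 without wild-type replicate 1, -0.09 without wild-type replicate 3 and 0.09 with groups by prefix.

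Set directly against the untreated mutants, the mutants labelled probucol differed in 2 of 15096 probes (0.0132%), neither of them among the 106, and 0 of the 106 were called there. Against the mutants labelled CoQ10, 4 of the 106 were called, 3 of them named, Cxcl1, Pde6c and Plekhb1. For the leading genes the difference from wild type was 3.24 for Serpina1e in mutants labelled probucol, 1.15 in untreated mutants and 1.70 in those labelled CoQ10. It was 2.54, 0.70 and -0.67 for Cxcl1, -1.89, -0.70 and -0.59 for Acot1, -1.92, -1.02 and -1.11 for Krt23 and -1.66, -1.78 and -1.21 for G0s2, in the same order of groups. The 3 comparisons share the 5 wild-type livers.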

How the data were processed

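Liver RNA was measured on 20 Illumina Mouse WG-6 v2.0 arrays, 1 a mouse. The authors deposited raw bead intensity values and a detection value per probe, a fraction between 0 and 1 that rises with intensity and was turned into a detection p by subtraction from 1. A second deposited table holds the authors' normalised log2 values, with no method stated for them. Each array's depth is the number of probes it detects, and the number of arrays limits the precision. From the intensities, background was corrected by normexp (offset 16, negative controls inferred from detection p), arrays were quantile normalised and log2 values taken with limma 3.58.1 in R 4.3.3. Probes with a detection p under 0.05 in at least 5 of 20 arrays were fitted with 4 group means over all 20 arrays, and p-values were adjusted by Benjamini-Hochberg over 15096 probes. Groups follow the treatment and source fields. Per the labels each array is a separate mouse.

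Gene names came from the platform annotation: 34885 probes have 1 symbol, 18 several and 10378 none, and the order of genes came from RefSeq's GRCm38.p6 gene table, used for order only. Named are up to 15 higher and 15 lower called genes whose groups do not overlap, by size, the called members of each of 38 gene lists with up to 4 further members of smallest p, and called genes within 100 positions of Pdss2. The compared groups and the lists were chosen with earlier results of these data known. Lists are described by counts and medians over 1 probe a gene, the kept probe of highest mean. RefSeq promoter windows were found for 63 of the 84 called named genes, and the 250 bases before the start were searched. A fold against a group without detection is a lower bound, set at the lowest detected signal of each array. The fit was tested on simulated data. Alternatives were another background correction, scaling, filter, the deposited log2 values, a fit of 2 groups, blocks for array number and replicate number, groups by array name prefix, and livers left out. Replicate numbers did not pair the livers.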

Additional observations from a re-analysis of the deposited data

Results flagged for a closer look

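Of 62 groups of 5 livers tested over the leading genes, 3 had a liver apart from the 4 others by Dixon's criterion, which flags about 1 in 20 groups by chance, so 3 is about the number that chance gives. Pde6c was 7.9083 in replicate 4 of the mutants labelled probucol, where the next value was 7.4442. Serpina1e was 9.829 in wild-type replicate 2, with the next wild type at 10.8895. H2ac7 was 6.4301 in wild-type replicate 4, with the next wild type at 6.9296.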

How the results depend on the processing

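All 106 called probes kept their direction under the alternatives run, except that 1 of them turned when groups followed the array name prefix, A2ml1 on its second probe (-0.025), and that 86 of them were tested with detection in all 20 arrays. The alternatives reuse livers on which the probes were called, and the prefix grouping reuses the wild types. A kept direction was therefore largely fixed in advance and does not test the calls. Cyp4a12a, a male-biased cytochrome gene that differed by -0.03 and was not called, differed by 1.95 with groups by prefix (limma, adjusted p = 2.89e-04). The count of 106 (43 higher, 63 lower) became 9 (2 higher, 7 lower) with median scaling, where the share higher was 22.2% in place of 40.6%, 55 (19 and 36) with no filter, 67 (24 higher) in a fit of the 2 groups, 18 (5 and 13) with groups by prefix and 13 (2 and 11) with probucol replicates 1, 2 and 4 left out. It ranged from 24 without probucol replicate 4 to 269 without probucol replicate 5 when 1 liver was left out (higher from 5 to 140, lower from 19 to 129), and was 27 without wild-type replicate 2. The cause was not tested. Near Pdss2 9 called probes became 4 with median scaling, 5 with detection in all 20 arrays, 4 with replicates 1, 2 and 4 left out and 4 within 25 positions, and ranged from 7 to 10 without 1 liver. Livers of the same replicate number did not deviate together (r from -0.32 to 0.28), and a replicate block called 123 probes. Of the 95 named called probes 10 lost their call under that block. The number in the array name as a block called 116, and 19 of the 95 lost their call. Median scaling moved the median of all probes to 0.05. Calls lost with it included Serpina1e, Apcs, A2ml1, H2ac7, H2ac12, H2ac13, H2ac15, Acot1 and G0s2. Those lost in the fit of the 2 groups included Serpina1e, Cxcl1, A2ml1, H2ac12, H2ac13, H2ac15, Acot1 and G0s2. Dim probes, near background, limit what folds can be read.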

Other observations

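Stellate cell and matrix markers lay lower in 15 of 20 genes (median -0.22, 0 called), but the median was 0.09 with groups by the array name prefix, -0.14 without probucol replicate 2 and -0.13 with mutant replicates 1, 2 and 4 left out. Members included Pdgfra, a receptor of fibroblasts and stellate cells, at -0.54 ± 0.14 and Reln, reelin, at -0.44 ± 0.14 (limma, adjusted p = 0.068 and 0.18). Their summed intensity was 18853 to 22587 in mutants labelled probucol and 23224 to 25544 in wild types. Lyve1, a hyaluronan receptor of sinusoidal endothelium, was the 1 called gene of 16 on the sinusoidal endothelial list (0.788% over all genes), at 0.86 ± 0.19 (limma, adjusted p = 0.0419), with overlapping groups and a list median of -0.04 (0.05 with median scaling). The Lyve1 call was lost in 7 of 10 fits without 1 liver (adjusted p up to 0.152), with the number in the array name as a block (0.0688) and with a replicate block (0.0517). Endoplasmic reticulum chaperones lay higher in 13 of 17 genes (median 0.19, 0 called), against -0.12 with mutant replicates 1, 2 and 4 left out, 0.12 without probucol replicate 2 and -0.08 with groups by prefix. Of 13 pancreas markers 3 were measured, 1 higher and 2 lower (median -0.02), with Cela1 at -0.10 and Amy2a5 at -0.02. The third, Cela2a, an elastase, stood at 9.25, 9.84, 7.19, 11.41 and 6.51 in mutants labelled probucol, against 7.86, 6.88, 7.50, 6.91 and 6.99 in wild types, and was not called (1.61 ± 0.58; limma, adjusted p = 0.24). The red cell gene Hba-a1 differed by -0.70 ± 0.30 (limma, adjusted p = 0.35), and all 3 measured red cell markers lay lower (median -0.55, and -0.37 without wild-type replicate 1).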
